A study of Mus musculus with 12 samples.

Results

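Fully methylated sites were autosomal CpG cytosines at which at least 90% of the reads were methylated in each of 12 spermatozoa samples. They were chosen by their methylation level, computed in every sample as methylated reads over all reads, and 1551 of the 13917 autosomal sites of the count table passed, or 11.1%. The table held 14149 sites in all, each of them the cytosine of a CpG on 1 strand of the mouse genome (GRCm38). Since the rule bounds the methylation of a member in every sample, the methylation levels of the members are given as a description, with no test.

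The methyl group on the cytosine of a CpG is laid down in fetal male germ cells by DNMT3A and its relatives together with the cofactor DNMT3L, and is copied at each DNA replication by DNMT1. Most of the sperm genome is methylated in this way, including gene bodies, intergenic DNA and many repeats, while the CpG islands at gene starts are largely left free. Spermatozoa no longer divide, and they carry this pattern with them from the testis through the epididymis, the duct in which they mature.

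The 4 origins, with 3 samples each, were the testis and the epididymal segments in the order in which sperm passes them: caput, corpus and cauda. The mice were untreated, 10 to 12 weeks old and of a B6D2F1 background with the transgene Tg(CAG/su9-DsRed2, Acr3-EGFP)RBGS002Osb in every group; the broadly active CAG promoter drives a red protein sent to mitochondria and the Acr3 promoter a green protein of the acrosome. Cells were sorted on both colours, and a sample was made from pooled mice, so that differences between animals within a pool are not seen. According to the paper, cauda sperm was flushed out of the duct, while testis, caput and corpus were cut up and dissociated. An effect of the way of collection cannot be told apart from that of the cauda. Reduced representation bisulfite sequencing (RRBS) reads the ends of short fragments cut at CCGG, after a treatment that makes unmethylated cytosine read as thymine.

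Reads summed over all sites of the table ranged from 429606 in corpus replicate 1 to 1007992 in testicular replicate 2. Corpus replicate 1 was the shallowest sample, with a median of 20 reads per autosomal site, against 30 to 53 in the other 11 samples. No site of the table was covered by fewer than 10 reads in any sample. Between 10 and 19 reads the rule tolerated 1 unmethylated read, and from 20 reads on it tolerated 2 or more, so that it was strictest for rare unmethylated reads where a sample was shallow.

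The sperm label was checked at sites of imprinted genes, whose control regions are methylated in sperm at the paternally methylated genes and free of methylation at the maternally methylated ones. At the H19 site (chr7:142575817, within H19 and 721 bp from an annotated transcription start), methylation was 97.8%, 96.7% and 92.8% in testicular replicates 1 to 3 and 98.9%, 98.4% and 97.1% in cauda replicates 1 to 3. It was 87.1%, 93.2% and 93.7% in the caput replicates and 97.1%, 94.1% and 89.3% in the corpus replicates, from 68 to 270 reads per sample. The H19 site therefore failed the rule through caput replicate 1 and corpus replicate 3. The 4 sites before the start of Rasgrf1, also of the paternally methylated list, were at or below 3.57% in every sample when their reads were summed, and so did not show paternal methylation. Whether these sites belong to the regions that control imprinting was not tested.

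Mcts2, a retrogene with maternal methylation, had 3 sites at its start (chr2:152687059-152687077) and was at or below 5.61% in each testicular and cauda sample. The reads of its sites were methylated to 68.1%, 22.6% and 17.0% in caput replicates 1 to 3, and to 0%, 9.20% and 0% in the corpus replicates. Caput replicate 1 was also the highest sample at the Gnas site, with 57.4% of 54 reads, close to the 47.4% of 57 reads of caput replicate 3. With the reads of the 4 Zrsr1 sites summed it was highest too, with 26.8% of 56 reads. This came from 1 site, chr11:22972947, with 64.3% of 14 reads. At each of the other Zrsr1 sites it stood at 14.3% of 14 reads, below the 16.7% of 18 reads of corpus replicate 3. Caput replicates 2 and 3 were also above all testicular samples at Mcts2 and Gnas.

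Not every imprinted gene set caput replicate 1 apart. It was at 0% at the 4 sites at the start of Trappc9, and at the coding site of Peg10, which lies 8541 bp from a start and ran from 54.5% to 100% over the samples, it had 89.5% of 19 reads. Of the paternally methylated list, 2 sites near the start of an antisense transcript of Igf2 stood at 38.1% of 21 reads each in caput replicate 1 and at 29.2% or less in the other samples. Caput replicate 1 was thus the highest sample at Mcts2, Gnas and the Igf2 sites, and at Zrsr1 through 1 site only. It stood furthest from the other 11 samples at Mcts2. The number of members and the main caput differences are given below with and without it, and its part in other caput values was not tested.

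The samples differed in how many sites they passed. Single samples had between 4381 (caput replicate 2) and 5465 (testicular replicate 2) autosomal sites at 90% or more, or 31.5% to 39.3%. All 3 testicular samples passed at 4280 sites and all 3 cauda samples at 4559, whereas all 3 corpus samples passed at 3393 and all 3 caput samples at 2804. Adding the groups in turn to the testicular samples left 3634 sites with cauda, 2408 with corpus and 1551 with caput.

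At the other end, 6672 autosomal sites reached 90% in no sample, and 3279 sites stayed at or below 10% in all 12. A further 1346 sites passed in 11 of the 12 samples. Caput replicate 1 was the failing sample at 292 of these, caput replicate 2 at 181, corpus replicate 1 at 152, caput replicate 3 at 149 and corpus replicate 3 at 141. The other 7 samples failed at between 49 and 97 sites each. The caput samples together accounted for 46.2% of these near members and the cauda samples for 11.8%.

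Most near members missed by little. The failing sample lay at 80% or more at 1016 of the 1346 sites (75.5%), its median methylation was 85.2%, and 441 sites would have passed if 1 of its unmethylated reads had been methylated. The failing sample was under 50% at 19 sites, 12 of them through caput replicate 1. The most extreme was an intronic site of the transcription factor gene Camta1 (chr4:151451677), named after its values were seen, with 0% of 11 reads methylated in caput replicate 1 and 100% in the other 11 samples. Without caput replicate 1 the rule would have kept 1843 sites, and without both caput replicate 1 and corpus replicate 1 it would have kept 2036.

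The rule's edge fell between nearly equal sites. Just inside it, the intronic site of the transporter gene Abca5 at chr11:110306543 stood at 90% of 180 reads in caput replicate 1 and at 90.3% to 100% in the other samples. The intronic site of Gm44196 at chr6:98644097 stood at 90% of 150 reads in caput replicate 2, and the coding site of the germ cell gene Morc1 at chr16:48479842, 210 bp from a transcription start, at 90% of 50 reads in corpus replicate 1. Just outside it, the intergenic site chr10:40507987 stood at 89.9% of 199 reads in caput replicate 1, with a mean of 97.6% over the samples. The intergenic site chr11:106356745 stood at 89.9% of 119 reads in testicular replicate 1, and the intronic site of Cpne4, a calcium-dependent lipid-binding protein gene, at chr9:104878300 at 89.9% of 109 reads in cauda replicate 1.

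Over the 12 samples the members had 1254412 reads, of which 25045 were unmethylated. A member had a median of 579 reads in all and of 9 unmethylated ones, with up to 197 unmethylated reads at a single site. The unmethylated reads were concentrated: 221 members (14.2%) held 50% of them. The median of the members' mean methylation was 98.6%, and the median of their lowest sample was 93.3%. A share of reads mixes the cells of a sample, so that a few cells unmethylated at many members and many cells unmethylated at a few cannot be told apart.

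Residual unmethylated reads were found in every segment. In testicular spermatozoa they made up 2.23%, 2.26% and 2.13% of the reads at the members in replicates 1 to 3. The caput values were 2.07%, 2.23% and 2.08%, the corpus values 1.16%, 2.19% and 1.52%, and the cauda values 1.65%, 1.74% and 1.85%. The cauda samples lay below every testicular and caput sample, and the corpus samples spread from 1.16% to 2.19%, with the shallowest sample lowest. As group means these were 2.21% ± 0.0696 (SD, n = 3) for testicular, 2.13% ± 0.0884 for caput, 1.62% ± 0.524 for corpus and 1.75% ± 0.101 for cauda spermatozoa. The Wilson 95% interval of corpus replicate 1 was 1.06% to 1.26%, and that of testicular replicate 2 was 2.19% to 2.34%; such intervals cover counting error only, since reads of amplified fragments are not independent molecules.

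The share of members with no unmethylated read at all differed widely between samples of different depth. It was 85.3% in corpus replicate 1, the shallowest sample, and 44.5% in testicular replicate 2, the deepest. Testicular replicates 1 and 3 had 60.3% and 51.1%, and corpus replicates 2 and 3 had 54.5% and 76.9%. In the caput samples it was 71.2%, 63.8% and 68.9%, and in the cauda samples 60.2%, 62.2% and 59.1%. A total of 521 members had an unmethylated read in at least 6 samples, and 29 members had them in all 12.

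At the 620 members with at least 20 reads in every sample the residual share was higher in each group. It was 2.43% ± 0.163 (SD, n = 3) in testicular, 2.52% ± 0.0935 in caput, 1.95% ± 0.448 in corpus and 1.92% ± 0.118 in cauda spermatozoa. Corpus replicate 1 remained lowest, with 1.54% of 28890 reads.

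To read a sample at sites it had not helped to choose, the sites at 90% or more in the other 11 samples were taken and the sample left out was read there. In testicular spermatozoa 2.67%, 2.47% and 2.38% of the reads were then unmethylated in replicates 1 to 3, and in caput spermatozoa 4.21%, 3.18% and 2.89%. Corpus spermatozoa had 2.69%, 2.49% and 2.46%, and cauda spermatozoa 1.86%, 2.01% and 2.11%. All 3 caput samples lay above and all 3 cauda samples below every testicular sample, while the corpus samples overlapped with them. These values rest on 48063 reads in corpus replicate 1 and on 86244 to 141319 reads in the other 11 samples.

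The caput mean of 3.43% ± 0.689 (SD, n = 3) exceeded the testicular mean of 2.50% ± 0.148 by 0.923 percentage points. The sites read in a sample are the members and those at which it alone failed, so its value partly restates the rule. The differences from testicular spermatozoa are therefore given with no test. At the members alone, where the rule bounds every sample, the means were 2.21% in testicular, 2.13% in caput and 1.75% in cauda spermatozoa. The cauda mean of 1.99% ± 0.122 fell by 0.512 points relative to the testicular mean. The corpus mean of 2.55% ± 0.123 differed from the testicular mean by 0.0403 points. With the sites as they were and caput replicate 1 left out of the mean, an alternative chosen after seeing the data, the caput difference was 0.534 points. When a replicate was left out of the choice of sites as well, it was 0.881 points without caput replicate 1, and 1.30 and 1.33 points without caput replicates 2 and 3.

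The sites at which the sample left out dropped under 90% were the near members counted above, here as a share of the sites chosen. The share was 15.8%, 10.5% and 8.76% in the caput replicates and 8.93%, 3.90% and 8.33% in the corpus replicates. It was 5.89%, 3.06% and 3.90% in the testicular and 3.42%, 3.42% and 3.06% in the cauda replicates. Caput exceeded testicular spermatozoa by 7.40 percentage points, or by 5.32 points with caput replicate 1 left out of the mean, and corpus exceeded them by 2.77 points. Cauda fell by 0.980 points, but by 0.184 points without testicular replicate 1. These shares restate whether a sample passed the rule and are given with no test.

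A whole group was also left out of the choice; the share of sites that fail in any of 3 samples is larger by construction than that of a single sample, and is given with no test. Of the 2408 sites at 90% or more in the 9 samples outside caput, 857 (35.6%) failed in at least 1 caput sample, 622 of them in a single sample and 68 in all 3. Caput replicates 1 to 3 failed at 500, 361 and 299 of these sites, and 565 sites failed when caput replicate 1 was left out, as chosen after seeing the data. The corresponding shares were 20.7% of 1956 sites for corpus, 13.4% of 1790 for testicular and 9.93% of 1722 for cauda spermatozoa. The mean of the 3 caput samples was under 50% at 2 of the 2408 sites. Those 2, named after their values were seen, were the intergenic site chr4:115966711, with 0%, 23.5% and 72.4% in the caput replicates, and the intronic site chr6:6184160 of the mitochondrial carrier gene Slc25a13, with 3.85%, 86.0% and 35.5%. Both were at 90.3% or more in the other 9 samples. At the opposite end, of 3712 sites at or below 10% in the 9 samples outside caput, 433 (11.7%) rose above 10% in at least 1 caput sample, and 282 did so without caput replicate 1. The shares for the other groups were 8.46% for corpus, 4.21% for testicular and 3.90% for cauda spermatozoa.

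Members were read more deeply than the average site in 11 of the 12 samples. The relative depth, taken as the mean coverage at members over that at all autosomal sites, was 1.31, 1.25 and 1.28 in the testicular replicates and 1.26, 1.29 and 1.31 in the caput replicates. It was 1.26, 1.24 and 1.25 in the cauda replicates, and 0.932, 1.23 and 1.19 in the corpus replicates. Corpus replicate 1 alone had fewer reads at members than at the average site, and more at the sites at or below 10%, where its relative depth was 1.31 against 0.943 to 1.10 in the other samples. Group means differed from the testicular 1.28 ± 0.0326 (SD, n = 3) by 0.00218 in caput, by -0.163 in corpus and by -0.0339 in cauda. The rule has coverage as its denominator, so these differences are given with no test. Without corpus replicate 1 the corpus difference was -0.0697, and without testicular replicate 1 the cauda difference was -0.0178.

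The lowest coverage of a member over the samples had a median of 16 reads, against 15 over all autosomal sites. The share of members rose from 9.82% of the 6567 sites whose lowest coverage was 10 to 14 reads to 14.3% of the 1374 sites with 30 to 49, and was 11.9% of the 1265 sites with 50 or more. Members were thus found at every depth.

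In position the members differed from the table as a whole. Promoters, taken as 2 kb around an annotated transcription start, held 209 members, or 13.5%, against 43.8% of all autosomal sites. Introns held 659 members (42.5%, against 22.0%), exons outside promoters 183 (11.8%, against 6.30%) and intergenic DNA 500 (32.2%, against 28.0%). Seen from the other side, 3.43% of the promoter sites of the table were members, against 20.9% of exon, 21.6% of intron and 12.9% of intergenic sites. These shares are descriptions of a list chosen on methylation, and sites of the same fragment are not independent.

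The contrast was sharpest near transcription starts. Closer than 100 bp to a start, 24 of 1336 sites were members (1.80%), while 857 were at or below 10% in all samples. The share of members was 2.33% from 100 to 500 bp, 5.60% from 500 to 2000 bp and 17.2% from 2000 to 10000 bp, and 642 of the 3559 sites between 10000 and 50000 bp were members. Beyond 50000 bp the share was 14.1%. The median distance to a start was 10719 bp for members, 3633 bp for all autosomal sites and 267 bp for the sites at or below 10%.

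Members lay in sequence poorer in CpG. In windows of 100 bp on either side of the CpG, the median ratio of observed to expected CpG was 0.498 for members, 0.573 for all autosomal sites and 0.782 for sites at or below 10%. The share of members fell from 15.2% of the sites with a ratio of 0.2 to 0.4 to 4.82% of those with a ratio of 1 or more, where 57.0% of the sites were at or below 10%. Median GC content was 46.5% around members and 56.9% around the sites at or below 10%. Members inside promoters had a median ratio of 0.539, against 0.689 for all promoter sites, and lay a median of 673 bp from the start, against 329 bp.

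Coding sequence held 204 members (13.2%, against 7.54% of all autosomal sites), and untranslated regions 36 (2.32%, against 9.01%). Repeats, read from the lower-case bases of the reference, held 360 members. A share of 16.0% of repeat sites were members, against 10.2% of the other sites. Residual unmethylated reads made up 2.09% at members in repeats and 1.96% elsewhere, and between 1.83% (exons) and 2.06% (introns) by annotation. The distance to the nearest CCGG upstream on the strand read, where a fragment starts, had a median of 28 bp for members and 29 bp for all autosomal sites. The share of members was 12.6% at 11 to 20 bp, 11.2% at 21 to 30 bp, 10.4% at 31 to 50 bp and 10.1% at 51 to 100 bp from it.

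Members were found on all 19 autosomes. Their share ran from 8.76% of the 696 sites of chromosome 13 to 15.7% of the 676 sites of chromosome 3, with the other 17 autosomes between these. The X chromosome, which the rule leaves out, had 9 of 207 sites at 90% or more in all samples, or 4.35%. Among them, and named after its values were seen, was a promoter site of the calcium channel gene Cacna1f (chrX:7627264), which had 730 reads and a lowest sample of 93.8%. The Y chromosome had 0 of 25 sites, which allows a share of up to 12%.

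Clusters of members were small. Joining members within 100 bp gave 1061 single members and 219 clusters, of which 175 held 2 members, 36 held 3 and 8 held 4, so that 31.6% of the members had another within reach. Over all autosomal sites 60.4% were in such clusters, the largest holding 21 sites. These shares cannot be set against each other, since a member was joined only to other members and a smaller set has fewer sites to join. The clusters spanned a median of 16 bp and at most 87 bp, and 217 of the 219 lay on 1 strand. They therefore mostly reflect CpGs of the same reads, and the members of a cluster are not independent measurements. A non-member lay inside 30 of the clusters.

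Sites next to members were nearly as methylated as the members themselves. For 831 members the table held another autosomal site within 100 bp, and the nearest such site had a mean methylation of 90% or more in 810 cases (97.5%), against 28.3% over all autosomal sites with a neighbour. The nearest site was itself a member, and so at 90% or more by the rule, in 406 cases (48.9%). Over all autosomal sites with a neighbour, the nearest site was a member in 10.1%. In no case was the nearest site of a member at or below 10% in all samples. The 406 distinct non-members that were nearest to a member averaged 95.9% ± 0.343 (SD, n = 3) in testicular, 93.6% ± 1.70 in caput and 96.0% ± 0.0636 in cauda spermatozoa, and 94.7%, 95.5% and 94.9% in the corpus replicates. In caput replicate 1 they averaged 91.6%, the lowest of the 12 samples. A non-member is by definition under 90% in at least 1 sample, and caput replicate 1 was under 90% at 126 of the 406, more than any other sample. These means therefore partly restate the rule.

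In 3 cases, named after their values were seen, the nearest site had a mean under 50%. In an intron of the kinase gene Ulk4, the member chr9:121126816 averaged 99.6% and the site 13 bases before it, chr9:121126803, averaged 4.73%. In an intron of Rhobtb1 the member chr10:69197024 averaged 95.4% and chr10:69197016 averaged 2.80%. In an intron of Gm5444 the member chr13:4830007 averaged 99.4% and chr13:4830011 35.9%. Lowest coverages at these 6 sites were 10 to 16 reads. All 3 low neighbours, and none of the 3 members, lay in a CCGG, where the enzyme cuts and where bases can be filled in when libraries are made. Whether this played a part was not tested.

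Both strands of the same CpG were in the table for 26 CpGs, and 3 of these, named after their values were seen, had a member on 1 strand and none on the other. At Mucl2 (chr15:103897370, on the minus strand) the member averaged 96.3% and the other strand 98.2%, with 82.4% in corpus replicate 2. The 2 CpGs close to the start of Gm12735 and Sfi1 (chr11:3193466 and chr11:3193474) averaged 95.8% and 94.8% on the member's strand. On the other strand corpus replicate 1 fell to 81.2% of 16 reads at the first. At the second the other strand averaged 91.4% and failed in corpus replicate 1 (84.6% of 13 reads), corpus replicate 3 (66.7% of 15 reads) and cauda replicate 3 (87.2% of 86 reads).

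The 10 clusters with the most members, ties ordered by their lowest coverage, held 4 members in 8 cases and 3 in 2, and 9 of them are described here. A cluster lay within Gin1, a gene derived from a retroelement integrase, on chromosome 1 from 97779122 to 97779147. Its 4 members, all in a repeat and in the promoter window, had 9628 reads with 1.98% unmethylated, and averaged 97.7% ± 1.94 (SD, n = 3) in testicular, 98.6% ± 0.739 in caput, 98.0% ± 0.556 in corpus and 98.0% ± 1.04 in cauda spermatozoa. In the coding sequence of Snrnp70, which encodes a protein of the spliceosomal U1 particle, the cluster from 45377106 to 45377124 on chromosome 7 had 2700 reads with 1.15% unmethylated. Its CpG ratio of 1.24 was well above the members' median. The group means there ran from 98.4% in testicular to 99.2% in cauda spermatozoa, within the spread of the replicates.

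Of the further clusters, that of Gm35608, a long non-coding RNA gene, lay on chromosome 10 from 76684201 to 76684220, 212 bp from the start, with 6 unmethylated reads among 1189. That of Mei1, a meiotic gene, lay in an intron on chromosome 15 from 82121543 to 82121602 and held 2 non-members between its 4 members. Each non-member failed in a single sample, with 85.3% in caput replicate 2 and 83.3% in corpus replicate 2. Its members averaged 100% in testicular and cauda and 98.3% ± 0.380 in caput spermatozoa.

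The sequences of these 4 clusters are given to show how closely the members sit together and how much their surroundings differ; they are from the plus strand of GRCm38.p6, with 20 bases on either side, and capitals mark the CpGs of the members.
Gin1 chr1:97779102-97779167: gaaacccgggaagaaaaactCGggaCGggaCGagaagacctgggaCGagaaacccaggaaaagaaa
Snrnp70 chr7:45377086-45377144: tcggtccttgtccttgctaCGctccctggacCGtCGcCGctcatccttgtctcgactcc
Gm35608 chr10:76684181-76684240: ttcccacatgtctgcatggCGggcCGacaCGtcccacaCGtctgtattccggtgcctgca
Mei1 chr15:82121523-82121622: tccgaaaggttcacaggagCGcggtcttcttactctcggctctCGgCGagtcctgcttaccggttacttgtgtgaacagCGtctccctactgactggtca
The windows held 5, 6, 5 and 8 CpGs in this order, 4 of them members in each.

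The remaining clusters of this kind were an intergenic repeat on chromosome 8 from 116805293 to 116805320, 39814 bp from the nearest start, and coding sequence close to transcription starts of Map3k1, a kinase of stress signalling (chromosome 13 from 111769401 to 111769429), and of Safb2, a nuclear matrix protein gene (chromosome 17 from 56575635 to 56575653). The Safb2 cluster had 2 unmethylated reads among 749, both in cauda samples. Inside the Map3k1 cluster the non-member chr13:111769411 fell to 73.7% of 19 reads in caput replicate 1 and to 89.7% of 29 reads in testicular replicate 3. The clusters of 3 were an intron of Dip2a on chromosome 10 from 76318974 to 76318995, where 2.86% of 13124 reads were unmethylated, and an exon of Slco5a1, an organic anion transporter gene, on chromosome 1 from 12976034 to 12976055, with 2.21% of 5795 reads.

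A total of 100 members had no unmethylated read in any sample. They were shallow: 88 of them had a lowest coverage of 10 to 14 reads, and their median was 307.5 reads in all, against 579 for all members. Because they were picked for having none, no limit on their unmethylated share is given. The deepest of them was the intergenic site chr18:76733080, with 0 of 828 reads unmethylated and 20 to 107 reads per sample. It was followed by the intergenic site chr17:10147958 with 769 reads, an intronic site of the haematopoietic GTPase gene Rhoh (chr5:65884586) with 721, the intergenic repeat site chr7:127417629 with 564 and an intronic site of the potassium channel gene Kcnn2 (chr18:45271100) with 542.

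The members with the most reads all had residual unmethylated ones. The deepest, in an intronic repeat of Rgs6, a regulator of G protein signalling (chr12:82741976), had 117 unmethylated reads among 4906, and its methylation ran from 94.5% in testicular replicate 1 to 99.6% in cauda replicate 2. The 3 sites of the Dip2a cluster came next. At chr10:76318980 the cauda replicates had 97.0%, 94.6% and 90.5% and the testicular replicates 97.0%, 94.9% and 97.9%, so that the groups overlapped. The intergenic site chr3:101171261 had 137 unmethylated reads among 4216 and its lowest sample, corpus replicate 1, at 91.3% of 92 reads.

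Members lay within, or up to 2 kb before, 847 of the 5439 genes with a site in the table, and 706 of these genes are protein-coding. A single member CpG was found in 642 genes and 3 or more in 61. The atypical cadherin gene Fat1 had the most, with 8 member CpGs among its 11 in the table, of which 5 lay in promoter windows. Its members averaged 97.9% ± 1.18 (SD, n = 3) in testicular, 98.0% ± 1.64 in caput, 99.5% ± 0.863 in corpus and 97.8% ± 0.892 in cauda spermatozoa, with 2.30% of 8818 reads unmethylated.

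Snrnp70 had 7 member CpGs of 15, all in exons, between 45376794 and 45377124 on chromosome 7. The scaffold gene Grip1 had 6 of 16 and the oxidoreductase gene Wwox 6 of 18, all in introns of genes of 633 and 913 kb. Aff3, a transcription factor gene, had 5 of 10, Gin1 5 of 7, Dip2a 5 of 5 and the giant muscle protein gene Ttn 5 of 6. Of the 17 genes with 4 member CpGs the first 2 in alphabetical order, the receptor genes Ephb1 and Fgfr2, are named, with 4 of 10 and 4 of 30. The annotation of Fgfr2 spans 2961 kb. Across the 10 genes named the unmethylated share at members lay between 1.16% (Aff3) and 2.76% (Dip2a).

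Gene lists put the members in context. The list of Hox and other developmental regulators had 140 sites in the table, of which 0 were members and 81 were at or below 10% in all samples. Of these sites 119 were in promoters, where 3.43% of all sites were members, and 70 of the 119 were at or below 10%, against 2982 of all 6094 promoter sites. The list of spermatid and sperm genes had 3 sites and that of housekeeping genes 7, also without a member. Among 9 sites at germline genes that somatic cells silence by methylation, 1 was a member, an exonic site of the cohesin gene Rec8 (chr14:55621274) with 2 unmethylated reads among 484. The last 3 lists have few sites. All sites of the spermatid and housekeeping lists and 6 of the 9 germline sites were in promoters, where 3.43% of all sites were members. Over all autosomal sites 11.1% were members.

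The list of DNA methylation enzymes and their cofactors had 9 sites, of which 4 were members (44.4%, against 11.1% of all autosomal sites). The sites are few and lie in 3 genes, so this share cannot be read as a trait of such genes. Over the table, 3.43% of promoter sites and 21.6% of intron sites were members. The 4 members came from 3 genes. A pair 5 bases apart, and so not independent, lay at Dnmt3a, the de novo methyltransferase, at chr12:3907714 and chr12:3907719. Both were in coding sequence, 898 and 903 bp from an annotated start. The first averaged 97.2%, 99.8%, 97.7% and 97.8% in testicular, caput, corpus and cauda spermatozoa. The second was lowest in caput replicate 1, with 91.0% of 145 reads, and stood at 100% in all 3 cauda samples. The genes of the methylcytosine oxidases Tet1 (chr10:62819187) and Tet2 (chr3:133502052) had an intronic member each, with 10 unmethylated reads among 728 and 8 among 754. At both genes the cauda replicates were all at 100% and the corpus replicates at 99% or more. The lowest samples were caput replicate 2 with 93.8% at Tet1 and caput replicate 1 with 95.8% at Tet2.

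The lists of imprinted genes had few sites. Among 7 sites of the paternally methylated list there was none, the H19, Rasgrf1 and Igf2 sites being those described above. Among 16 sites of the maternally methylated list 2 were members (12.5%, against 11.1% of all autosomal sites), both in introns of Trappc9, a trafficking gene. These were chr15:72832670, with 38 unmethylated reads among 1887, and chr15:72968654, with 3 among 401. At chr15:72832670 the testicular replicates had 96.3%, 94.1% and 92.6% and all the other samples 97.8% or more, whereas the 4 sites at the start of Trappc9 were at or below 10% in every sample.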

How the data were processed

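The data were RRBS counts of methylated and unmethylated reads at CpG cytosines of sorted spermatozoa, with 3 samples for each of 4 origins. Per the submitters' processing notes, the authors trimmed reads with Trim Galore 0.4.1, aligned them to GRCm38 with Bismark 0.16.1 and deposited, with methylKit, a table of raw counts per site and strand; versions of FastQC and methylKit were not given. All 36 count columns were used as deposited. The authors' 6 comparison lists, which hold methylation differences, p-values and q-values but no sample values, were not used. Those for caput and corpus are named as made without outliers; the samples left out of them are not given in the sources used here.

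Sites were annotated with GENCODE vM21 and GRCm38.p6, read with pysam 0.24.0; values were computed with pandas 2.3.3, scipy 1.17.1 and numpy 2.4.6 under Python 3.11.15. A site was assigned to a promoter first, then exon, intron or intergenic DNA. Members and gene lists were chosen with earlier results of these data known. Named were the 10 clusters with the most members, of which 1 is not reported here, the 5 deepest members, the 5 deepest without an unmethylated read, 3 sites on either side of the threshold, the 10 genes with the most members (ties in alphabetical order), and genes of 7 lists with a member; other names were chosen after their values were seen and are marked so, apart from the imprinted genes that check the sperm label.

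Replicates were compared with each other site by site (mean chi-square per site 2.39 to 8.51, at most 1.74% of sites with identical counts) and treated as separate samples. The pairs of caput replicate 1 with caput replicates 2 and 3 had 8.08 and 8.51, and every other pair had 4.11 or less. Segments were compared with testicular samples by the difference of group means, with no test, since the rule used the reads of all samples. The share of 0 on the Y chromosome is given with the limit of 3 over the number of sites. Wilson intervals have 95% confidence. Alternatives were other methylation and coverage minimums, other promoter and joining distances, joined strands, omitted replicates, a replicate block, and means over sites. The scripts were tested on simulated data.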

Additional observations from a re-analysis of the deposited data

Results flagged for a closer look

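In the reading of samples at sites chosen by the other 11 samples, caput and cauda moved to opposite sides of testicular spermatozoa. Every caput sample had a larger unmethylated share than every testicular sample and every cauda sample a smaller one, and the caput mean exceeded the cauda mean by 1.43 percentage points. Neither this difference between the segments nor its cause was tested. At the members alone, where the rule bounds every sample, the means were 2.13% in caput, 2.21% in testicular and 1.75% in cauda spermatozoa. At the 620 members with at least 20 reads in every sample they were 2.52%, 2.43% and 1.92%. Because of this bound, the means at members do not weigh for or against the difference above.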

How the results depend on the processing

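The number of members depended on the minimum: 2567 sites reached 85% in every sample, 449 reached 95%, 100 had 0 unmethylated reads, and 620 members had at least 20 reads in every sample. It ranged from 1600 to 1843 when a sample was left out. With promoters of 1 kb, the shares of members were 8.51% for promoters, 13.5% for exons and 45.3% for introns; narrower windows pass sites to the other classes.

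Over 9 comparisons, 74 of 80 alternative settings kept the direction of the difference, not counting the replicate block, which leaves the difference as it is. The caput difference in unmethylated share ranged from 0.534 to 1.33 points, and the cauda difference from -0.603 to -0.426. The differences in the share of sites under 90% ranged from 5.03 to 9.36 points for caput, from 1.33 to 4.23 for corpus and from -1.66 to -0.0956 for cauda. The corpus difference in unmethylated share reversed to -0.212 at a minimum of 95% and to -0.000807 without corpus replicate 1, and leaving out replicates gave -0.0450 to 0.120. The caput difference in relative depth reversed to -0.00415 with medians and to -0.00871 without caput replicate 3, and ranged from -0.0143 to 0.0182 over omitted replicates. The cause was not tested. Chosen after seeing the data, omitting caput replicate 1 left 565 sites that failed and 282 that rose in caput among those constant outside it.

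With the replicate number as a block, the caput difference stayed 0.923 points. Same-numbered samples had correlations of -0.123 to 0.0592, and 3 of 12 samples correlated best with their own number. No pairing by number was thus seen, but whether same-numbered samples came from the same mice cannot be told from these values. Depth limits what can be seen: 781 members had under 20 reads in corpus replicate 1, where 2 unmethylated reads fail the rule.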
